A study of Mus musculus with 8 samples.

Results

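The tristetraprolin family of mRNA decay proteins was followed in mouse spleen through its 3 measured members, Zfp36, Zfp36l1 and Zfp36l2. They were chosen by symbol, with earlier results of these data known, and each is a single RefSeq transcript among the 23517 transcripts of 17738 symbols measured. RNA sequencing had been done on whole spleens of 8 untreated male C57BL/6 mice aged 8 to 12 weeks, 4 wild-type (WT) and 4 TTPΔARE. TTPΔARE mice carry a Zfp36 gene without the AU-rich element (ARE) of its own mRNA, and the alleles are otherwise undescribed: no source used here gives zygosity, the ends of the deletion, litters or batches. Each library is 1 mouse. Levels are FPKM, fragment numbers divided by transcript length and library depth, so that levels of different genes can be compared per length. Differences are TTPΔARE minus WT on the log2(FPKM + 0.5) scale.

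Zfp36 encodes tristetraprolin (TTP), a zinc finger protein. Its sites are AU-rich stretches of the 3′ untranslated regions (3′ UTRs) of short-lived mRNAs, among them that of the inflammatory cytokine tumour necrosis factor. It recruits the CCR4-NOT deadenylase complex, which shortens the poly(A) tail and starts decay. Zfp36l1 and Zfp36l2 encode relatives with the same pair of CCCH zinc fingers and the same preferred site. TTP is known from myeloid cells, where it is induced rapidly by inflammatory signals, and the relatives are known for roles in lymphocyte development and, for Zfp36l2, in blood progenitors and red cell maturation. TTP can bind the ARE of its own mRNA, a feedback loop that the TTPΔARE allele was made to break. The comparison asked how the mRNAs of all the family stood in spleens with that allele.

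The AU-rich sites in the 3′ UTRs of the members are shown because the allele removes such sites from Zfp36 and leaves the relatives' own. Each sequence is a stretch of the mRNA strand, 5′ to 3′, from the GRCm38 genome with GENCODE M21 transcripts, and capitals mark the heptamer TATTTAT, the core of the TTP site.
Zfp36, chr7:28376958-28376987, minus strand: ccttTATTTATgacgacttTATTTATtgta
Zfp36l1, chr12:80108430-80108459, minus strand: ttatttaacttatcaaaacgTATTTATtgc
Zfp36l2, chr17:84184917-84184946, minus strand: aaaaactatttaactTATTTATtatcttgt

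All 3 members carried 3 heptamers in the annotated 3′ UTR, counted on the mRNA strand only, and in each 1 heptamer lay inside the nonamer TTATTTATT. In the Zfp36 3′ UTR of 774 bases they began 575, 590 and 615 bases after the stop codon, within a short cluster. In the Zfp36l1 3′ UTR of 1835 bases they began at 1150, 1191 and 1405. In the Zfp36l2 3′ UTR of 1822 bases they began at 822, 870 and 1056. Of 1290 tested genes with a 3′ UTR within 20% of the length of that of Zfp36, 17.0% held at least 1 heptamer and 0.698% held at least 3. For Zfp36l1 the share of 1893 genes of like length with at least 1 was 34.6%, and 3.17% held at least 3. For Zfp36l2 those shares were 34.4% and 3.12% of 1893 genes. The pentamer ATTTA, which every such heptamer contains, occurred 3 times in Zfp36, 9 times in Zfp36l1 and 5 times in Zfp36l2. A match of letters is a description and does not show binding in these spleens.

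Each gene has 2 exons on the minus strand in GENCODE M21, and RefSeq (GRCm38.p6) places Zfp36 at chr7:28376784-28379228, Zfp36l1 at chr12:80107760-80113013 and Zfp36l2 at chr17:84183924-84187947. A gene of the opposite strand overlaps each of them (Gm44710, Gm26669 and AC132455.1, respectively), and whether the counting used strand is not stated. The pseudogene Zfp36l1-ps matches 903 bases of the Zfp36l1 transcript at 94.7% identity, so part of the Zfp36l1 reads could be shared with it. No copy of at least 90% identity over at least 50 bases was found between members.

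Zfp36 mRNA, the targeted gene, rose in TTPΔARE spleens. WT replicates 1 to 4 had 37.9, 42.1, 44.9 and 36.4 FPKM. TTPΔARE replicates 1 to 4 had 57.5, 46.1, 55.1 and 52.9 FPKM. The lowest TTPΔARE spleen, replicate 2, was just above the highest WT spleen, replicate 3, and the groups did not overlap. The mean went from 40.3 ± 3.91 to 52.9 ± 4.90 FPKM (SD, n = 4 each), 1.31-fold higher (log2 difference 0.39, SE 0.0848, 95% interval 0.20 to 0.57, limma with Benjamini-Hochberg adjusted p = 0.0323). Over the 70 ways to assign the spleens, the exact permutation test (two-sided) gave p = 0.0286, the smallest it can give. FPKM divides by the annotated transcript length, and how far the deleted stretch lowers the TTPΔARE values was not tested, since its ends and the zygosity are not known here. Of the 8 leave-outs, 5 ended the limma call: in WT, those of replicate 1 (log2 0.36, adjusted p = 0.0668) and replicate 4 (0.34, 0.0921), and in TTPΔARE, those of replicate 1 (0.35, 0.0736), replicate 3 (0.37, 0.108) and replicate 4 (0.39, 0.0859). The direction stayed in all 8.

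Zfp36l1 mRNA fell in TTPΔARE spleens. WT replicates 1 to 4 had 96.7, 100.8, 106.0 and 102.8 FPKM. TTPΔARE replicates had 74.9, 76.1, 65.5 and 67.4 FPKM. Every TTPΔARE spleen was more than 20 FPKM below every WT spleen. The mean went from 101.6 ± 3.91 to 71.0 ± 5.32 FPKM (SD, n = 4 each), a 1.43-fold fall (log2 -0.52, SE 0.0653, 95% interval -0.66 to -0.37, limma adjusted p = 0.00461). Ordered by p, it was number 12 among the transcripts that were lower. It passed with each of the 8 spleens left out in turn, with log2 differences of -0.55 to -0.48 and adjusted p of 0.00504 to 0.0220.

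Zfp36l2 was lower in 3 TTPΔARE spleens and did not pass the test. WT replicates 1 to 4 had 44.8, 45.9, 51.1 and 44.7 FPKM. TTPΔARE replicates had 33.7, 31.3, 46.4 and 32.1 FPKM. TTPΔARE replicate 3 stood within the WT range and the other 3 TTPΔARE spleens stood below all WT spleens. The means were 46.6 ± 3.06 and 35.9 ± 7.06 FPKM (SD, n = 4 each), with a log2 difference of -0.39 (SE 0.111, 95% interval -0.63 to -0.15, limma adjusted p = 0.0764). Without TTPΔARE replicate 3 the difference was -0.52 and passed (adjusted p = 0.0137).

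**Figure D1:**
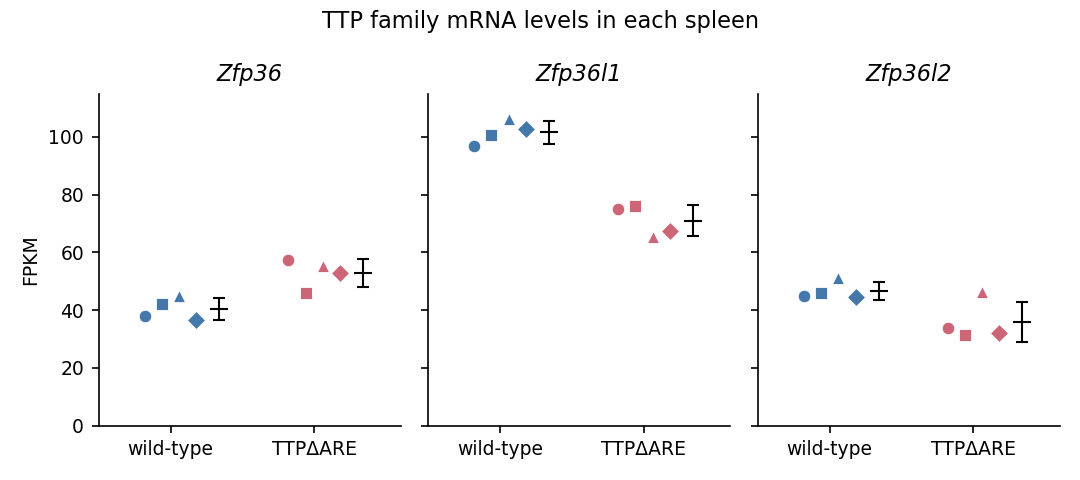
Levels of Zfp36, Zfp36l1 and Zfp36l2 in FPKM in each spleen, WT in blue and TTPΔARE in red, with the marker shape giving the replicate and the black bar the mean ± SD of 4 spleens. The groups are apart for Zfp36 (TTPΔARE higher) and Zfp36l1 (TTPΔARE lower), and TTPΔARE replicate 3, at 46.4 FPKM, brings the Zfp36l2 groups into overlap.

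Among all 16608 tested transcripts, 4.00% passed an adjusted p of 0.05 in either direction, 2.01% higher and 1.99% lower, 21.1% had an unadjusted p under 0.05, and for 12.5% the groups did not overlap, 6.53% with TTPΔARE higher and 5.99% with TTPΔARE lower. Of the 3 members, 1 was called higher, 1 lower and 1 was not called. The members are abundant mRNAs: by mean FPKM Zfp36l1 ranked 235, Zfp36 527 and Zfp36l2 628 of those tested. Their estimated fragments per spleen, 1898 to 3270 for Zfp36, 6204 to 9891 for Zfp36l1 and 3224 to 5309 for Zfp36l2, give counting errors of 1.98, 1.12 and 1.49%. The coefficients of variation between spleens of 1 genotype were larger, 9.68% in WT and 9.26% in TTPΔARE for Zfp36, 3.85 and 7.49% for Zfp36l1 and 6.57 and 19.7% for Zfp36l2. The rodent relative Zfp36l3, named after its values were seen, was at 0.0244 to 0.0713 FPKM in WT and 0 to 0.0528 FPKM in TTPΔARE, below the level at which transcripts were tested.

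The order of the family changed below its top member. In each of the 4 WT spleens the level per length was highest for Zfp36l1, then Zfp36l2, then Zfp36. In each of the 4 TTPΔARE spleens Zfp36l1 stayed highest and Zfp36 stood above Zfp36l2. The ranges of Zfp36 and Zfp36l2 overlapped in both genotypes, so across spleens these neighbours were not separated, while within each spleen their order was the same throughout its genotype. With 4 spleens no exact test of such an order within a genotype can pass 0.05.

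Ratios within a spleen do not depend on its scaling factor, and both ratios to Zfp36 were lower in TTPΔARE. Zfp36l1 over Zfp36 was 2.55, 2.39, 2.36 and 2.82 in WT replicates 1 to 4. It was 1.30, 1.65, 1.19 and 1.27 in the TTPΔARE replicates. The highest TTPΔARE ratio, again in replicate 2, lay well below the lowest WT ratio. The means were 2.53 ± 0.211 and 1.35 ± 0.204 (SD, n = 4 each), a log2 difference of -0.91 (SE 0.119, exact two-sided permutation p = 0.0286, 0.0357 adjusted over 5 measures of the family's composition). Zfp36 and Zfp36l1 were each already apart between genotypes, in opposite directions. The separation of this ratio and its exact p therefore follow from the members' own differences and are no separate result.

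Zfp36l2 over Zfp36 was 1.18, 1.09, 1.14 and 1.23 in WT. It was 0.587, 0.680, 0.841 and 0.607 in TTPΔARE. Zfp36l2 thus exceeded Zfp36 in each WT spleen and was below it in each TTPΔARE spleen. The means were 1.16 ± 0.0585 and 0.679 ± 0.115 (SD, n = 4 each), a log2 difference of -0.79 (SE 0.123, exact two-sided permutation p = 0.0286, adjusted 0.0357). With any 1 spleen left out neither ratio overlapped between genotypes, which fixes the exact p at the smallest it can give.

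The ratio between the relatives did not differ beyond its spread. Zfp36l1 over Zfp36l2 was 2.18 ± 0.0942 in WT and 2.04 ± 0.440 in TTPΔARE (SD, n = 4 each), a log2 difference of -0.12 (SE 0.176, exact two-sided permutation p = 0.771). TTPΔARE replicate 3 had the lowest ratio, 1.41, and the other TTPΔARE spleens had 2.10 to 2.43. Without that spleen the log2 difference was 0.04. The p does not show that the relatives moved alike.

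**Figure D2:**
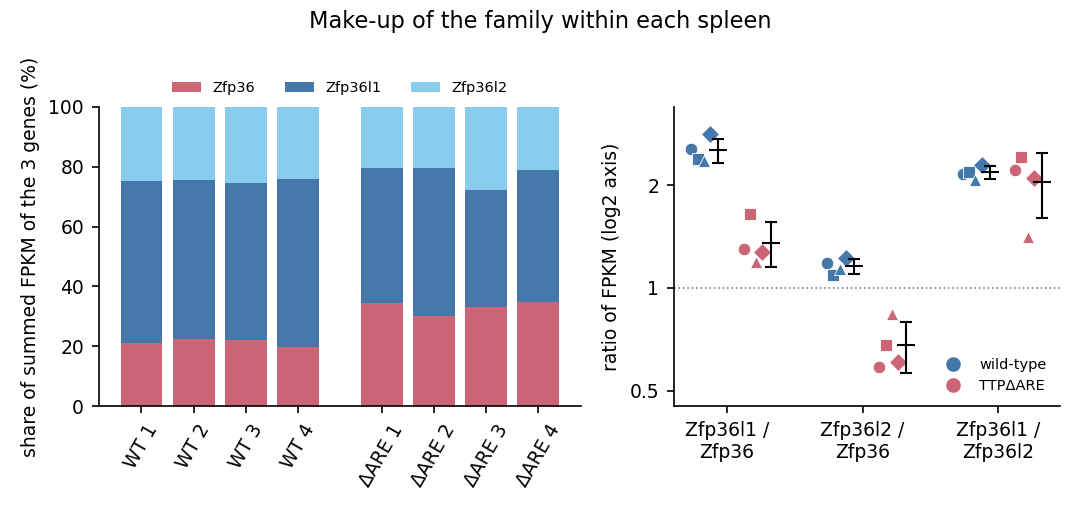
Ratios of FPKM within each spleen, plotted by genotype with the mean ± SD of 4 spleens. Both ratios over Zfp36 are apart between WT and TTPΔARE, and Zfp36l1 over Zfp36l2 overlaps, with TTPΔARE replicate 3 lowest at 1.41.

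The summed level of the 3 mRNAs was lower in TTPΔARE, since the losses outweighed the gain. Zfp36 gained 12.5 FPKM on average, and the mean differences of Zfp36l1 and Zfp36l2 were -30.6 and -10.7 FPKM. The sum was 179.3, 188.8, 202.1 and 183.9 FPKM in WT replicates and 166.1, 153.5, 167.0 and 152.4 FPKM in TTPΔARE replicates, a difference in means of -15.3%. Zfp36 made up 21.4 ± 1.17% of the sum in WT and 33.1 ± 2.18% in TTPΔARE. The share of Zfp36l1 was 53.9 ± 1.45% in WT and 44.5 ± 4.24% in TTPΔARE, and that of Zfp36l2 24.7 ± 0.498% and 22.4 ± 3.60% (SD, n = 4 each). Sums and shares follow from the members' own differences and are given as descriptions.

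A spleen is a mixture, and in bulk RNA fewer cells of a type and less RNA per cell cannot be told apart. Marker lists of 7 cell types were therefore read beside the family, with 1 transcript per symbol, where 4.17% of 12410 symbols were called, 2.26% higher and 1.91% lower. No measured marker was at 0 in all 8 spleens. All 26 erythroid markers had positive differences with an unadjusted p under 0.05 (median log2 1.17), and 3 passed the adjusted test, Alas2, Fech and Bpgm. Their summed level was 154.4 to 334.1 FPKM in WT and 303.5 to 548.9 FPKM in TTPΔARE. WT replicate 3 had the highest erythroid level of its genotype, and without it 24 of the 26 passed. Each other leave-out gave only 2 or 3 erythroid calls.

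Of 18 B cell markers 3 fell, Fcer2a, Cd22 and H2-Ob, and 16 had negative differences (median log2 -0.18). Their summed level, 1586 to 1710 FPKM in WT and 1423 to 1542 FPKM in TTPΔARE, did not overlap between genotypes. The marginal zone B cell list had 2 rises among 12, Myof and Cd1d1 (median 0.13, sums of 299.5 to 325.6 and 307.1 to 342.0 FPKM). None of 20 T cell markers passed by limma, with 8 at an unadjusted p under 0.05 (median -0.06, sums of 322.4 to 362.6 and 298.6 to 343.3 FPKM).

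Of 16 neutrophil markers Retnlg and Mmp8 rose (median 0.28, sums of 116.8 to 327.6 and 167.5 to 296.1 FPKM). Neutrophil levels were highest in WT replicate 3 and TTPΔARE replicate 3, mean log2 0.93 and 0.91 above the WT mean. These spleens also had the highest Zfp36l2 and the highest endothelial list mean (0.09 and 0.20 above the WT mean) of their genotypes. WT replicate 3 was highest in WT for the erythroid and macrophage lists as well. A relation of Zfp36l2 with the neutrophil or endothelial list was not tested. Of 16 red pulp macrophage markers Emr1 rose (median 0.14, sums of 705.2 to 990.2 and 890.0 to 1012.8 FPKM). Of 13 endothelial markers Esam, Gpihbp1, Sox18 and Kdr rose and Madcam1 fell (median 0.22, sums of 123.6 to 144.7 and 145.9 to 154.6 FPKM). Without WT replicate 3 the calls were 5 of the B cell, 2 of the T cell and 4 of the neutrophil list, and without TTPΔARE replicate 3 they were 0 of the neutrophil and 1 of the endothelial list. The neutrophil median was 0.78 without WT replicate 3 and 0.17 without TTPΔARE replicate 3. Over all 8 leave-outs 2 to 5 B cell, 0 to 2 T cell, 0 to 4 neutrophil and 1 to 5 endothelial markers were called. For the marginal zone and macrophage lists the calls were 0 to 2 each. Only without WT replicate 3 were more than 3 B cell markers called. The part of these cell types in the family's differences was addressed only for erythroid and B cells, by adding the mean of either list to the fit.

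With the erythroid mean in the fit, the log2 difference was 0.28 for Zfp36 (limma adjusted p = 0.444), -0.51 for Zfp36l1 (0.106) and -0.55 for Zfp36l2 (0.218). Without a list in the fit these differences were 0.39, -0.52 and -0.39. The standard error for Zfp36l1 was 0.0986 with the erythroid mean and 0.0653 without it. With the B cell mean in the fit the differences were 0.11 for Zfp36 (adjusted p = 0.825), -0.41 for Zfp36l1 (0.445) and -0.69 for Zfp36l2 (0.427). Both lists differ between the genotypes, and few transcripts of any kind were called beside them: 2 with the erythroid and 0 with the B cell list by limma, where 1658 and 1582 had an unadjusted p under 0.05. None of the members was called in either fit, and their directions were the same as without the lists.

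**Figure D3:**
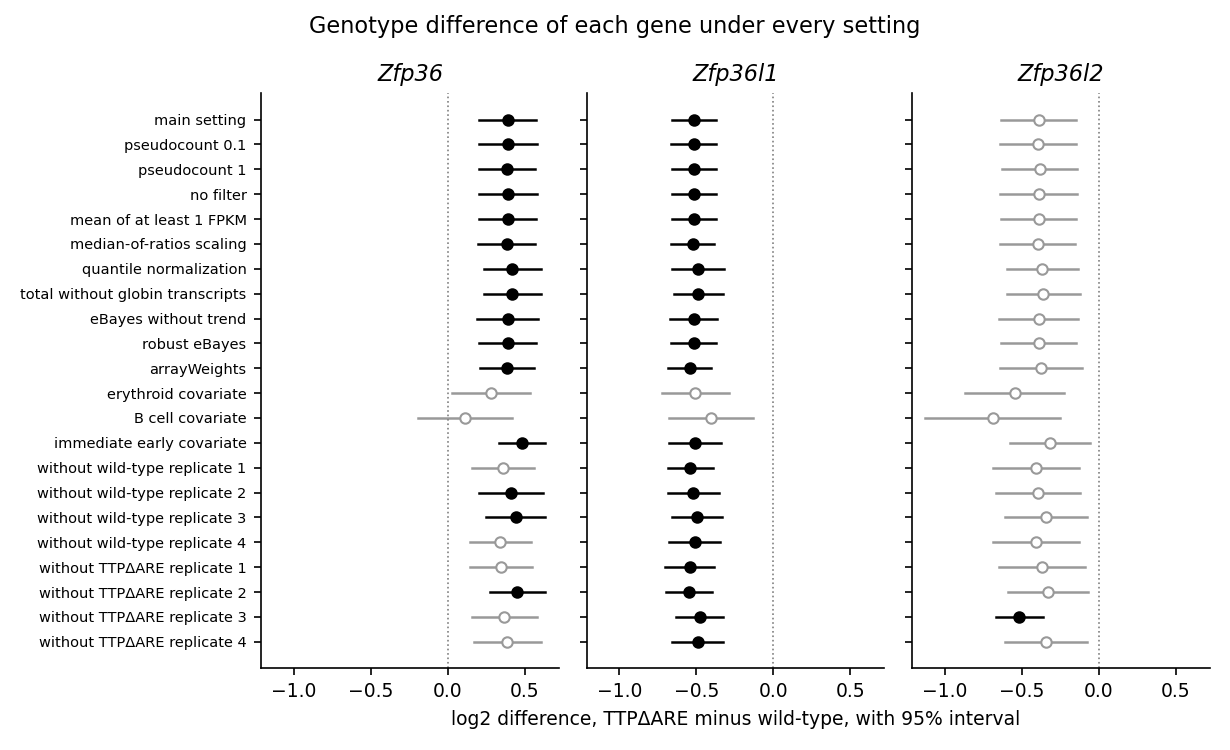
Log2 differences of Zfp36, Zfp36l1 and Zfp36l2 under each alternative, with filled black points for an adjusted p under 0.05 and open grey points otherwise. Zfp36 stays above 0 and both relatives below 0 throughout, with the smallest Zfp36 difference, 0.11, beside the B cell list.

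Co-variation was measured on deviations from the genotype mean, so that the difference between genotypes does not enter, over 8 spleens with an exact permutation within genotypes (576 assignments) and adjustment over 12 relations. No pair of members passed. Where r is given without 2 spleens, the deviations were not centred again, so a difference between genotypes can enter those values. Zfp36 and Zfp36l1 had Pearson's r = -0.065 (permutation p = 0.901, adjusted 0.901) and Spearman's rho = -0.0238 (permutation p = 0.990, adjusted 0.990). Leaving out WT replicate 4 and TTPΔARE replicate 2, the farthest from the median of Zfp36, gave r = 0.714, so the near-zero value rests on those spleens.

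Zfp36 and Zfp36l2 had r = 0.512 (permutation p = 0.236, adjusted 0.562) and rho = 0.548 (permutation p = 0.144, adjusted 0.346), and r = 0.326 without the same 2 spleens. Zfp36l1 and Zfp36l2 had r = -0.452 (permutation p = 0.554, adjusted 0.738) and rho = -0.476 (permutation p = 0.427, adjusted 0.760). That negative value turned to 0.546 without TTPΔARE replicates 2 and 3. Replicate 2 had the highest Zfp36l1 of its genotype, and replicate 3 the highest Zfp36l2.

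Immediate early genes are induced within minutes of a stimulus, Zfp36 among them, and can also be switched on while tissue is collected. The deviations of Zfp36 went with the mean of 29 other immediate early genes (r = 0.862, permutation p = 0.0174, adjusted 0.208; rho = 0.881, permutation p = 0.0104, adjusted 0.12), a relation that fails the correction over 12. It was 0.700 without WT replicate 4 and TTPΔARE replicate 2. For Zfp36l1 and Zfp36l2 the same list gave r = 0.0879 (permutation p = 0.861, adjusted 0.901; rho = -0.0952, permutation p = 0.809, adjusted 0.883) and 0.451 (permutation p = 0.375, adjusted 0.562; rho = 0.643, permutation p = 0.0538, adjusted 0.215). Without their 2 farthest spleens these became 0.657 and 0.380. Zfp36 and the B cell list had r = -0.692 (permutation p = 0.0920, adjusted 0.552) and rho = -0.643 (permutation p = 0.130, adjusted 0.346), and r = 0.0474 without WT replicate 4 and TTPΔARE replicate 2. The remaining relations with the erythroid and B cell lists had r between -0.529 and 0.471, and none passed after adjustment.

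The list itself had 12 positive and 17 negative differences between genotypes. With its mean in the fit, an alternative added after seeing the data, the log2 difference was 0.48 for Zfp36 (SE 0.0674, limma adjusted p = 0.0128), -0.51 for Zfp36l1 (adjusted p = 0.0136) and -0.32 for Zfp36l2 (adjusted p = 0.170). The standard error for Zfp36 was lower than the 0.0848 without it. In the same spleens the deviations of Zfp36 went with this list (r = 0.862), so its mean takes up part of their spread. The lower standard error and adjusted p for Zfp36 therefore restate that relation and are no separate result.

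**Figure D4:**
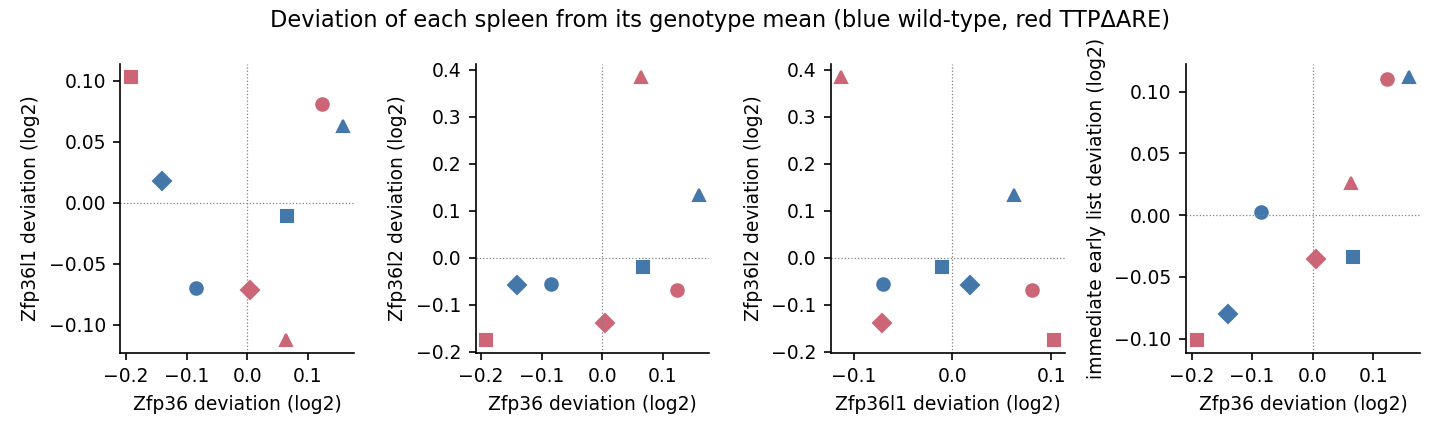
Deviations of log2(FPKM + 0.5) from the genotype mean, 1 point per spleen, for pairs of members and for Zfp36 against the mean of the immediate early genes. The points of Zfp36 and the immediate early genes lie nearest to a line (r = 0.862, adjusted permutation p = 0.208), and the pairs of members have r from -0.452 to 0.512. None of the relations shown passed the adjustment over 12.

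Genes whose pattern over the 8 spleens was most like that of a member were ranked by Pearson's r of log2(FPKM + 0.5) among 6232 genes of at least 5 FPKM, as a description. The genotype difference was left in this ranking, so genes that differ in the same direction as the member are favoured by the choice. Their differences are therefore no separate result. Zfp36 was most like Ckb, brain-type creatine kinase (r = 0.992), followed by Igsf8 (0.985), Map2k3, a kinase of the p38 pathway that controls TTP (0.974), Sord, sorbitol dehydrogenase (0.973), and Grina (0.970). Ckb went from 14.3 ± 1.65 to 19.0 ± 1.96 FPKM (SD, n = 4 each; log2 0.40, limma adjusted p = 0.0382). Igsf8 also rose (log2 0.44, limma adjusted p = 0.0240), and the other 3 did not pass. On deviations within genotypes the r of these 5 with Zfp36 was 0.920 to 0.974, values that share the spleens by which the genes were chosen.

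Zfp36l1 was most like Sfn, a 14-3-3 protein (r = 0.990), Srpk3 (0.984), Mical1 (0.984), Tlr1, a receptor for bacterial lipoproteins (0.983), and Ffar1, a fatty acid receptor (0.981). All 5 fell. Sfn went from 7.50 ± 0.396 to 5.52 ± 0.297 FPKM (SD, n = 4 each; log2 -0.41, limma adjusted p = 0.00777), and Ffar1 from 9.87 ± 1.69 to 4.66 ± 1.02 FPKM (log2 -1.01, limma adjusted p = 0.00689). Within genotypes the r with Zfp36l1 was 0.805 to 0.937, values that again share the spleens by which the genes were chosen.

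Zfp36l2 had fewer close companions. Mmp14, a membrane-bound matrix protease, had r = 0.981, and Smarcd2 (0.927), Aifm1 (0.892), Eif2b5 (0.881) and Mak16 (0.873) followed. Mak16 fell (log2 -0.23, limma adjusted p = 0.0458), and the other 4 did not pass. Mmp14 stood at 10.8 ± 0.375 and 9.36 ± 0.985 FPKM (SD, n = 4 each; log2 -0.20, limma adjusted p = 0.147).

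The wider pathway was read upstream to downstream in 6 lists, each beside the 4.17% of symbols called and the median log2 of 0.005 over all symbols. TTP is inactivated through p38 and its kinase MK2, whose phosphorylation lets 14-3-3 proteins bind, and reactivated by phosphatases. Of 22 genes of this control 2 rose, 9.09%, none fell, and the median log2 was 0.06, with 1 to 3 calls when 1 spleen was left out. The 14-3-3 genes of the list are those named Ywha, and Sfn, which fell as given above, is not on it. Mapk13, a p38 kinase, stood at 0.286 ± 0.0474 and 0.825 ± 0.146 FPKM (SD, n = 4 each). It met the minimum mean of 0.5 FPKM for testing only through its TTPΔARE values, so its call supports nothing, and Ywhah is the only other call of the list. Ywhah, a 14-3-3 protein, went from 45.1 ± 1.82 to 54.4 ± 3.38 FPKM (SD, n = 4 each; log2 0.27, limma adjusted p = 0.0371). Its call was kept only without WT replicate 3 or TTPΔARE replicate 2 among the 8 leave-outs, with adjusted p up to 0.131, and was lost in 3 of 13 processing alternatives. Ywhae, the most abundant of the list, stood at 64.3 ± 2.53 and 68.4 ± 3.59 FPKM (adjusted p = 0.441). The main p38 kinase Mapk14 (log2 0.07, adjusted p = 0.642) and the MK2 gene Mapkapk2 (log2 -0.04, adjusted p = 0.793) did not pass.

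Of 19 deadenylase genes and their cofactors 1 fell and none rose (5.26% called, median log2 -0.03). It was Btg2, an antiproliferative cofactor of the CCR4-NOT complex, which went from 44.6 ± 1.87 to 36.7 ± 2.87 FPKM (SD, n = 4 each; log2 -0.28, limma adjusted p = 0.0389). The call was kept only without WT replicate 3 or TTPΔARE replicate 1, with adjusted p up to 0.134, and was lost in 7 of 13 processing alternatives. Its relative Btg1 stood at 49.9 ± 4.37 and 57.3 ± 2.50 FPKM (log2 0.20, adjusted p = 0.130), and the poly(A)-binding protein gene Pabpc1 at 197.9 ± 12.7 and 217.5 ± 13.4 FPKM (log2 0.14, adjusted p = 0.306).

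None of 28 decapping, exonuclease and translational repression genes passed by limma, with 4 at an unadjusted p under 0.05 (median log2 -0.03). The nearest were Gigyf1, a repressor that TTP can recruit (log2 -0.23, adjusted p = 0.0719), and the helicase gene Ddx6 (log2 -0.23, adjusted p = 0.0748). Lsm4, of the ring that binds deadenylated mRNA, had the highest level, 25.0 ± 2.11 and 22.4 ± 1.07 FPKM (SD, n = 4 each; log2 -0.15, adjusted p = 0.218). Likewise none of 12 other ARE-binding or decay proteins passed by limma, with 3 at an unadjusted p under 0.05 (median log2 0.01). Zc3h12a, the Regnase-1 endonuclease gene, had log2 -0.24 (adjusted p = 0.0858) and Hnrpdl, an hnRNP, log2 -0.27 (adjusted p = 0.116).

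The immediate early list mixed rises and falls. Of 29 genes 1 rose and 3 fell, 13.8%, with a median log2 of -0.04 and 1 to 4 calls when 1 spleen was left out. Dusp2, a phosphatase of MAP kinases, fell from 14.8 ± 1.17 to 10.5 ± 0.785 FPKM (SD, n = 4 each; log2 -0.47, limma adjusted p = 0.00849), and the call was kept in all 8 leave-outs and lost in 2 of 13 processing alternatives, the erythroid and B cell covariates. Nr4a1, a nuclear receptor induced by antigen receptor signals, fell from 15.1 ± 1.21 to 11.4 ± 0.969 FPKM (log2 -0.38, adjusted p = 0.0217), a call lost without WT replicate 2, WT replicate 4 or TTPΔARE replicate 4 (adjusted p up to 0.0648) and in 3 of 13 processing alternatives. Btg2 was the third that fell. Rhob, a small GTPase gene, rose from 11.8 ± 0.887 to 15.8 ± 2.19 FPKM (log2 0.40, adjusted p = 0.0378), and kept its call only without WT replicate 3 or TTPΔARE replicate 1 (adjusted p up to 0.0985), with losses in 5 of 13 processing alternatives. Nfkbia, the most abundant, had log2 0.11 (adjusted p = 0.364).

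Reported targets of Zfp36l1 and Zfp36l2 were read because both relatives were lower on average. None of 19 passed by limma, with 4 at an unadjusted p under 0.05, and the median log2 was 0.08. The groups did not overlap for 0% of these targets, beside 12.7% of all symbols, 27.3% of the kinase, phosphatase and 14-3-3 list, 21.1% of the deadenylase list, 7.14% of the decapping list, 33.3% of the other ARE-binding proteins and 27.6% of the immediate early list. Ccnd3, the cyclin D3 gene, stood at 6.78 ± 0.336 and 9.21 ± 1.81 FPKM (SD, n = 4 each, log2 0.40, adjusted p = 0.0968). Of the 8 leave-outs it passed only without TTPΔARE replicate 2 (log2 0.54, adjusted p = 0.00479), with adjusted p up to 0.239 in the others. It passed in 1 of 13 processing alternatives, over which the log2 difference was 0.02 to 0.50. Bach2, a repressor of plasma cell differentiation, had log2 -0.31 (adjusted p = 0.135). Irf8, a transcription factor of myeloid and B cells, was the most abundant, at 94.1 ± 6.34 and 100.5 ± 1.90 FPKM (adjusted p = 0.402).

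**Figure D5:**
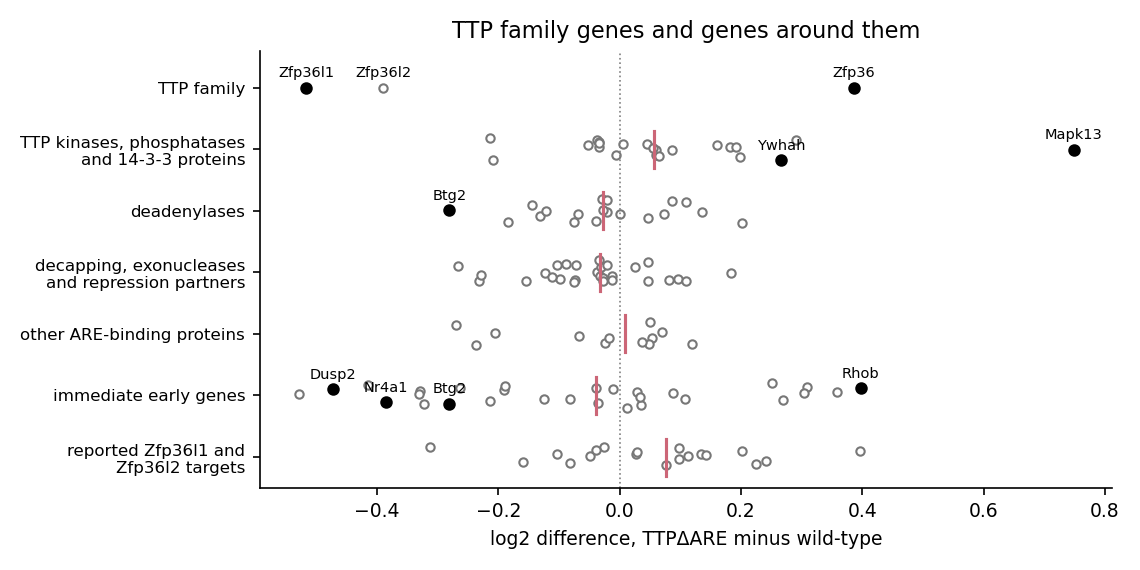
Log2 differences of the genes of the 6 pathway lists, with black points for an adjusted p under 0.05 and a red line at the median of each list. The medians lie between -0.04 and 0.08, and the few black points fall on both sides of 0.

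The libraries had estimated depths of 28.4 to 32.3 M fragments and summed FPKM of 196913 to 215501. Haemoglobin transcripts took 3.03 to 5.53% of the summed FPKM in WT and 7.19 to 10.3% in TTPΔARE, so this share differed with genotype. Scaled to the total without globins, the log2 differences were 0.42 for Zfp36, -0.49 for Zfp36l1 and -0.36 for Zfp36l2. Labels name no batch, so values within batches could not be given.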

How the data were processed

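Spleen RNA of 4 WT and 4 TTPΔARE mice was sequenced, and the values used are FPKM per RefSeq transcript, made by the authors and deposited as 1 table. The submitters' processing notes name BWA and the mm10 genome. How fragments were counted, whether strand was used and how multiply matching reads were treated is not given in the sources used here. Groups follow the genotype labels, and replicates are numbered in accession order, which pairs nothing. Each library is 1 mouse by the series' design text.

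Because FPKM are no counts, a linear model was used. The 16608 transcripts averaging 0.5 FPKM or more were compared as log2(FPKM + 0.5) by limma 3.58.1 under R 4.3.3 (variance trend, two-sided, Benjamini-Hochberg threshold 0.05), and adjusted p-values refer to it throughout. This scale understates the change of low transcripts. Ratios and co-variation used exact permutation tests in Python 3.11.15 with scipy 1.17.1. In lists, the transcript with the highest mean stood for its symbol.

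Low values (at most 0.5 FPKM) move in steps of 1 fragment, which gave each library's depth: 48.0 to 51.4% were whole fragments within 0.05 at the best depth, against 7.64 to 8.14% at other depths. Since about as many were not whole, counts were not rebuilt. 3′ UTRs came from GENCODE M21, and the limma fit was tested on simulated data.

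Members, lists and tests were chosen with earlier results of these data known. Named genes are the members, in each pathway list every call, the 2 smallest p and the highest mean, and for each member the 5 genes with the highest r (predicted genes left out). Markers past the threshold, Mapk14, Mapkapk2 and Zfp36l3 were named after their values were seen. Alternatives were other pseudocounts, filters, scalings and variance settings, erythroid, B cell and immediate early covariates, a threshold of 0.1 and leaving out each spleen.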

Additional observations from a re-analysis of the deposited data

Results flagged for a closer look

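Groups of 4 spleens were examined for a spleen far from the others by the ratio of its gap to the group's range, and 3 of 42 groups passed Dixon's 95% critical value, where chance flags about 1 in 20. Zfp36l2 in TTPΔARE replicate 3 was 46.4 FPKM while the other TTPΔARE spleens had 31.3 to 33.7 FPKM (ratio 0.840). The deadenylase list had a mean log2 of 3.75 in TTPΔARE replicate 1 and 3.67 to 3.68 in the others (ratio 0.846). The list of reported Zfp36l1 and Zfp36l2 targets had a mean log2 of 3.41 in TTPΔARE replicate 1 and 3.31 to 3.32 in the others (ratio 0.887).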

How the results depend on the processing

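The ratios of Zfp36l1 and Zfp36l2 to Zfp36 had log2 differences of -1.01 to -0.85 and -0.89 to -0.72 over the alternatives run. Their genotypes stayed apart, which is no further support. Leaving out a spleen cannot make separated groups overlap, and scaling a whole library cancels within a ratio. Zfp36 lost its call with the erythroid (0.28) and B cell (0.11) covariates. It also lost it in 5 of the 8 leave-outs (limma adjusted p up to 0.108), with differences of 0.34 to 0.45 over all of them. Zfp36l1 lost its call with the erythroid (-0.51) and B cell (-0.41) covariates and kept it in the other alternatives. Zfp36l2 passed 0.05 only without TTPΔARE replicate 3, within leave-outs of -0.52 to -0.33, and there, as with the erythroid and B cell covariates, its difference was larger than that of Zfp36l1. Transcripts called, 333 higher and 331 lower, became 0 and 2 with the erythroid covariate, 0 and 0 with the B cell covariate, 290 and 219 with the immediate early covariate, 726 and 636 at a threshold of 0.1, and 93 to 437 and 104 to 332 with a spleen left out, the counts being lowest without TTPΔARE replicate 3 (93 and 104), WT replicate 4 (114 and 136) and TTPΔARE replicate 4 (117 and 137). Scaling to the total without globins moved the split to 453 higher and 230 lower. Without TTPΔARE replicate 3 the ratio of the relatives turned to 0.0423 (leave-outs -0.218 to 0.0423), and Nfkbia was -0.0114 with the B cell covariate. Co-variation changed sign for Zfp36 with Zfp36l1 (quantile normalization 0.152, leave-outs -0.322 to 0.497), Zfp36l1 with Zfp36l2 (leave-outs -0.676 to 0.423), Zfp36l1 with the immediate early list (median-of-ratios scaling -0.0717, leave-outs -0.254 to 0.584) and Zfp36l1 with the erythroid list (leave-outs -0.494 to 0.230). The covariate fits have fewer degrees of freedom, leave-outs have fewer spleens, and other causes were not tested. No paired analysis was possible because the labels give no replicate number or pairing.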
